A study of Homo sapiens with 8 samples.

Results

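The RNA-seq libraries described here came from HCT116 and NCI-H716, both established human lines of colorectal cancer. Cells were left as a control or treated with the small molecule ZINC000101867325 (Z325), a compound selected by docking against the fibroblast growth factor receptors. Among 28043 genes with usable counts in HCT116, 6 genes were followed across both lines: MTUS1, ADGRF1, VSNL1, PACC1, SMIM14 and ASPH. These 6 genes were selected on their large measured changes in HCT116, so their HCT116 fold changes are given below as a description with no test, and the question put to the data was what level and what change each gene had in NCI-H716. Each of the 4 groups (HCT116 control, HCT116 Z325, NCI-H716 control, NCI-H716 Z325) held 2 libraries, made from about 100 cells per reaction. The labels give neither dose, time nor vehicle for these libraries. The study calls the replicates biological, but the labels do not say how they were separated, so p-values measure the spread between these samples.

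HCT116 is an epithelial colorectal carcinoma line, and NCI-H716 is a colorectal carcinoma line with enteroendocrine features. EPCAM, an epithelial adhesion molecule, stood at 1424 to 1655 counts scaled to a library of 1e6 (CPM) in HCT116, where CDH17, VIL1 and CDX1, other genes of gut epithelium, stayed below 1 CPM. These 4 were the only ones of 10 gut epithelium genes among the genes listed for HCT116, so the level of the rest there is unknown. In NCI-H716, 7 of 10 gut epithelium genes reached 1 CPM and CDX1 had no count in any library. The summed level of these 10 genes was 888 to 926 CPM in control and 760 to 798 CPM in Z325-treated NCI-H716 cells, and its part in the results below was not tested. Marker sums of leukocytes and of endothelium did not exceed 4.07 CPM in any library, while the fibroblast sum in NCI-H716, nearly all from the collagen gene COL3A1, was 245 to 268 CPM in control and 312 to 354 CPM in treated cells, and its part in the results was likewise not tested. In HCT116 the leukocyte sum covered 2 of 5 genes and the endothelium sum 1 of 5, as the others were not listed. Library totals were 13183792 to 13396225 counts for 3 HCT116 libraries and 3434620 for Z325 replicate 2, and 10210243 to 19738848 in NCI-H716. The shallow HCT116 library stands apart by its depth, and the HCT116 fold changes of the 6 genes, and of other genes given with an adjusted p, are therefore also given without it. CPM in HCT116 are relative to the listed genes, which cover chromosomes 1 to 8, and CPM in NCI-H716 to all genes, so CPM are compared within a line unless a shared scale is named.

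The 6 genes belong to different families, and whether they share a pathway was not tested. ADGRF1 (also called GPR110) is an adhesion G protein-coupled receptor, a class with a long extracellular part that is cut by the receptor itself. VSNL1 (visinin-like protein 1) is a neuronal calcium sensor that moves to membranes when it binds calcium. MTUS1 encodes microtubule-associated proteins linked to slower cell growth. PACC1 (TMEM206) forms a chloride channel of the cell surface and endosomes that opens in acid. ASPH is an endoplasmic reticulum enzyme that hydroxylates aspartate and asparagine in EGF-like domains, and the same locus encodes junctin and junctate, proteins of calcium stores. SMIM14 is a small membrane protein of the endoplasmic reticulum whose function is poorly known.

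ADGRF1 and VSNL1 were lower in Z325-treated HCT116 cells, and PACC1 and SMIM14 were higher. For these members, the 250 bases before each annotated start site are printed below. They are RefSeq promoters of GRCh38.p14, written 5′ to 3′ on the strand of the gene, with matches to the motifs named in the next paragraph in capitals. ADGRF1 lies at chr6:47042333-47042582 (minus strand), PACC1 at chr1:212414887-212415136 (minus strand) and SMIM14 at chr4:39638866-39639115 (minus strand). VSNL1 has a pair of RefSeq start sites, with windows at chr2:17539722-17539971 and chr2:17540446-17540695 (plus strand). Both windows lie inside the gene as counted here, which begins at 17539126. Which start sites these cells used was not measured.
ADGRF1: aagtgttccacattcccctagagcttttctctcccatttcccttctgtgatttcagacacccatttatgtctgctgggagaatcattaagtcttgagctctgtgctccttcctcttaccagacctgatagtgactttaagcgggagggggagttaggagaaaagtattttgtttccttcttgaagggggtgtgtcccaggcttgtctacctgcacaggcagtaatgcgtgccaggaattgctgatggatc
VSNL1, first start: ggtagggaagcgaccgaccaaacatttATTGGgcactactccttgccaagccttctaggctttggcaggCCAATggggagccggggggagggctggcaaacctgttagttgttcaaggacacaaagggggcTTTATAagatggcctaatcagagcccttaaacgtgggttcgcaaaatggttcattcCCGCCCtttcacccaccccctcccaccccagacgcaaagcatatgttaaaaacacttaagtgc
VSNL1, second start: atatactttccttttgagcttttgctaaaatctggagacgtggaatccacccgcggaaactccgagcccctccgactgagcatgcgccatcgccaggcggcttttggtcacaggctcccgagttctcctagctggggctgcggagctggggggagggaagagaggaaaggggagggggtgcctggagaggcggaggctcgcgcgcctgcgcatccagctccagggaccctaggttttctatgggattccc
PACC1: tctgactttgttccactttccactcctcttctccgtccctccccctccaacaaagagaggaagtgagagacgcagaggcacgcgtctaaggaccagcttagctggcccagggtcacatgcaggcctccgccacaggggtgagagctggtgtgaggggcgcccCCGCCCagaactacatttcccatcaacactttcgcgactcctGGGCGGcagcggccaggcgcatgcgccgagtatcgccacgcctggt
SMIM14: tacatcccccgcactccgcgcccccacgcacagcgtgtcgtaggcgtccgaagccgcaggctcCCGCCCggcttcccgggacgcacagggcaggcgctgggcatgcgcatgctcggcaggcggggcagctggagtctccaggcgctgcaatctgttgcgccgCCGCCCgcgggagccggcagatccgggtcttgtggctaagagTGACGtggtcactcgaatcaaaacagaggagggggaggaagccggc

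These 5 windows differed widely in base composition. GC content was 47.6% with 2 CpG for ADGRF1, 52.8% with 7 CpG and 61.2% with 15 CpG for the VSNL1 starts, 62.4% with 16 CpG for PACC1 and 70% with 28 CpG for SMIM14, against a median of 58% and 11 CpG over 35116 RefSeq promoters. The motifs were searched on both strands of the 250 bases before each start, in these windows and in all 35116 promoters alike. The GC box GGGCGG matched in PACC1, SMIM14 and the first VSNL1 start, and in 42.6% of all promoters. The TATA box TATAAA matched at the first VSNL1 start (10.7% of all promoters), as did the CCAAT box CCAAT (32%). The core of the cAMP response element TGACG matched in SMIM14 (21.2%). The antioxidant response element TGACNNNGC (10.9%), which overlaps the cAMP core where its first N is G, the AP-1 site TGANTCA (6.57%) and the ETS site CCGGAAG (8.52%) matched in none of the 5 windows. A match here describes letters and not a bound site. Promoters of MTUS1 and ASPH were not analysed here.

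Levels and changes in HCT116 set the starting point. All 6 genes were among the 375 genes (5.78% of 6491 tested) that edgeR called in HCT116 at an adjusted p under 0.05, with PACC1, SMIM14 and ASPH among the 184 higher (2.83%) and ADGRF1, VSNL1 and MTUS1 among the 191 lower (2.94%). Treated and control libraries did not overlap for any of the 6 genes, as for 53.8% of all genes tested. By fitted change, ADGRF1, VSNL1 and MTUS1 ranked 54th, 63rd and 80th among falls. SMIM14, ASPH and PACC1 ranked 136th, 240th and 259th among rises. Because the genes were chosen on this contrast, nothing is read from these counts and ranks. In bulk RNA, fewer cells that express a gene and less RNA per cell cannot be told apart.

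**Figure D1:**
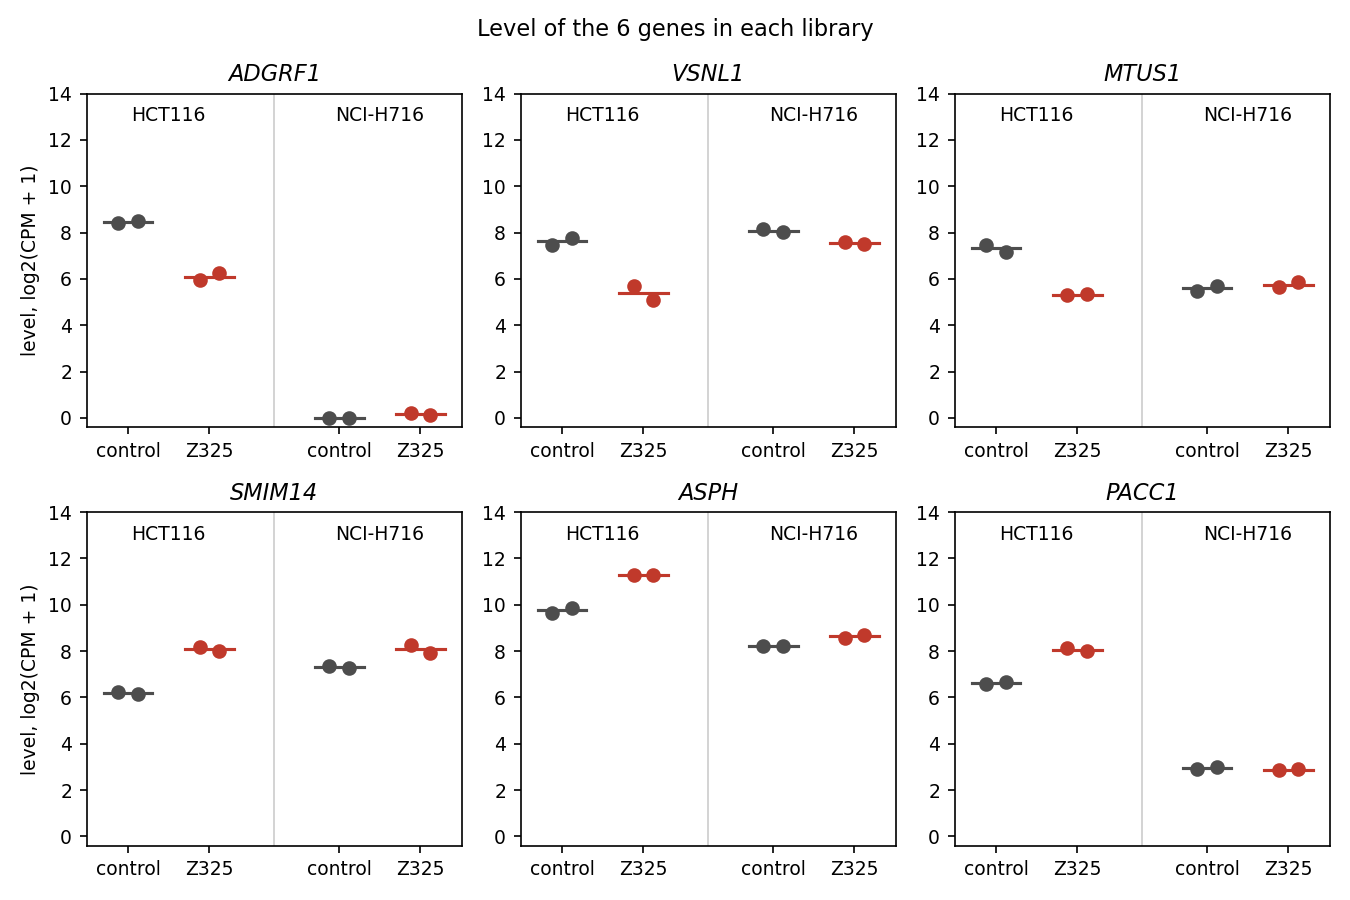
Level of each gene as log2(CPM + 1) in the 8 libraries, grouped by cell line and treatment (dots, single libraries; CPM over the listed genes of each line, so that heights compare within a line; bars, mean of 2 libraries; grey, control; red, Z325). All 6 genes show separate groups in HCT116, whereas in NCI-H716 ADGRF1 lies at or near 0, MTUS1 and PACC1 stay close to their controls, and VSNL1, SMIM14 and ASPH lie on the same side of their controls as in HCT116, at a smaller distance.

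ADGRF1 was strongly expressed in HCT116 and hardly present in NCI-H716. The gene (GRCh38 chr6:46997708-47042350, minus strand, 13 exon blocks) had 4656 and 4721 counts in control HCT116 and 771 and 259 counts after Z325. Scaled to depth, these were 337 and 362 CPM in control and 60.3 and 74.2 CPM in treated cells. Both treated libraries lay far below both controls. Its log2 fold change was -2.39 (SE 0.16, n = 2 per group), or 5.24-fold lower, which ranked 54th among falls in HCT116, and it was -2.51 without Z325 replicate 2. NCI-H716 had 0 and 0 counts in control and 2 and 2 counts after Z325. All 4 values lie under the limit of 3 counts that a count of 0 allows, equal to 0.152 to 0.294 CPM in these libraries, so no change was detectable at this depth and no fold is given. Its family members ADGRF3, ADGRF4 and ADGRF5 had at most 9 counts in any library of either line.

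VSNL1 was abundant in both lines, and its treated libraries lay below the controls in each. In HCT116 the gene (chr2:17539126-17657018, plus strand, 9 exon blocks) had 176 and 218 CPM in control and 51.1 and 33.5 CPM after Z325. The treated pair was the least even of the 6 genes, with replicate 2 the lower, and rested on 653 and 117 counts. For VSNL1 in HCT116 the log2 fold change was -2.19 (SE 0.23), or 4.57-fold lower, with -1.92 when Z325 replicate 2 was left out and -2.57 when Z325 replicate 1 was left out. NCI-H716 had 281 and 260 CPM in control against 190 and 180 CPM in treated cells. The groups did not overlap, and the fitted log2 fold change was -0.55 (SE 0.16, 95% interval -0.89 to -0.20), a 1.46-fold difference. It did not pass the adjusted threshold (edgeR adjusted p = 0.156).

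MTUS1 differed between the lines in the sign of its fitted change. The gene (chr8:17643795-17801094, minus strand, 33 exon blocks) had 178 and 141 CPM in control HCT116 and 38.4 and 39.5 CPM after Z325. Treated replicates were nearly equal, while the controls were less so. This gave a log2 fold change of -2.03 (SE 0.19), or 4.09-fold lower, and again -2.03 without Z325 replicate 2. In NCI-H716 the controls had 44.1 and 50.1 CPM and the treated cells 48.6 and 56.4 CPM. These groups overlapped, and the log2 fold change of 0.16 (SE 0.18, 95% interval -0.25 to 0.56) did not pass the test (edgeR adjusted p = 0.710). MTUS1 shares 277 exon bases (2.30% of its exon length) with PDGFRL on the other strand, so reads there are uncertain where counting does not use strand. PDGFRL had 79 to 391 counts in HCT116 against 138 to 2459 for MTUS1.

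In the count-based fit, SMIM14 had the largest change of the tested members in NCI-H716. This gene (chr4:39546336-39638902, minus strand, 8 exon blocks) had 74.1 and 68.9 CPM in control HCT116 and 284 and 252 CPM after Z325. Here the log2 fold change was 1.91 (SE 0.15), or 3.75-fold higher, and 2.02 without Z325 replicate 2. NCI-H716 controls stood at 162 and 151 CPM, and treated cells at 308 and 241 CPM. Both treated libraries exceeded both controls in that line. The log2 fold change of 0.81 (SE 0.17, 95% interval 0.42 to 1.20) gave 1.75-fold more in treated cells, short of the threshold (edgeR adjusted p = 0.0867). Which side of 0.05 the adjusted p fell on depended on the fit and on single libraries. With 1 treated library left, which is then assumed to vary like the controls, it was 0.0374 without NCI-H716 Z325 replicate 1 and 0.000452 without NCI-H716 Z325 replicate 2. It was 0.00318 by DESeq2, and the range over 12 alternatives was 1.96e-08 to 0.537.

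ASPH was well expressed in both lines, and its treated libraries lay above the controls in both lines. In control HCT116 the gene (chr8:61500556-61714640, minus strand, 37 exon blocks) had 806 and 938 CPM, rising to 2492 and 2489 CPM in treated cells. The treated libraries were within 3 CPM of each other although their depths differed widely. Treatment gave a log2 fold change of 1.51 (SE 0.13), or 2.86-fold higher, and 1.54 without Z325 replicate 2. NCI-H716 controls had 296 and 301 CPM and treated cells 378 and 414 CPM. The groups did not overlap, and the log2 fold change was 0.41 (SE 0.15, 95% interval 0.07 to 0.75), or 1.33-fold higher, without passing the threshold (edgeR adjusted p = 0.234). Of the exon bases of ASPH, 4.96% lie over CLVS1 on the other strand, which had at most 9 counts in HCT116 and 69.76 expected counts in NCI-H716.

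PACC1 was well expressed in HCT116 and scarce in NCI-H716. The gene (chr1:212363928-212414901, minus strand, 12 exon blocks) had 93.1 and 101 CPM in control HCT116 and 282 and 252 CPM after Z325. Its log2 fold change was 1.46 (SE 0.14), or 2.75-fold higher, and 1.56 without Z325 replicate 2. NCI-H716 had 6.59 and 6.98 CPM in control and 6.26 and 6.48 CPM in treated cells, from 72 to 129 counts. The treated values lay just below the controls without overlap, by less than 1 CPM. The log2 fold change was -0.09 (SE 0.29, 95% interval -0.74 to 0.57; edgeR adjusted p = 0.909). At this depth the interval was the widest of the 5 tested members, so a change of moderate size in either direction could not be told from none.

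Set side by side, 0 of the 5 members tested in NCI-H716 passed the adjusted edgeR threshold, where 71 of 14142 genes did (0.502%; 57 higher, 0.403%, and 14 lower, 0.099%). By unadjusted p under 0.05, 3 of 5 members passed (VSNL1, SMIM14 and ASPH), against 16.9% of all genes tested, while DESeq2 called 1 member, SMIM14, and limma on FPKM 0. An edgeR fit with the replicate number as a block called 3 of 5, again VSNL1, SMIM14 and ASPH, and 2397 genes in all. Whether that number marks a shared batch is not given in the labels. Treated and control libraries did not overlap for 4 of 5 members, against 49.4% of all genes. The description of these genes as responding in HCT116 alone therefore holds to different degrees. VSNL1, SMIM14 and ASPH had the same sign in both lines, and their NCI-H716 log2 fold changes came to 25.0%, 42.4% and 27.0% of those in HCT116. The order of these shares depended on the scale. By limma on log2(FPKM + 0.1), NCI-H716 and HCT116 values were -0.78 and -2.27 (VSNL1), 0.42 and 1.86 (SMIM14), and 0.38 and 1.48 (ASPH). On that scale SMIM14 had the smallest share and VSNL1 the largest. MTUS1 and PACC1 had opposite signs, with NCI-H716 intervals that include 0. The difference of the log2 fold changes, HCT116 minus NCI-H716, was -2.19 (SE 0.26) for MTUS1, -1.64 (SE 0.28) for VSNL1, 1.55 (SE 0.33) for PACC1, 1.10 (SE 0.23) for SMIM14 and 1.11 (SE 0.20) for ASPH. Since the choice of genes fixed a large value on the HCT116 side, the shares and differences are descriptions and carry no test.

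**Figure D2:**
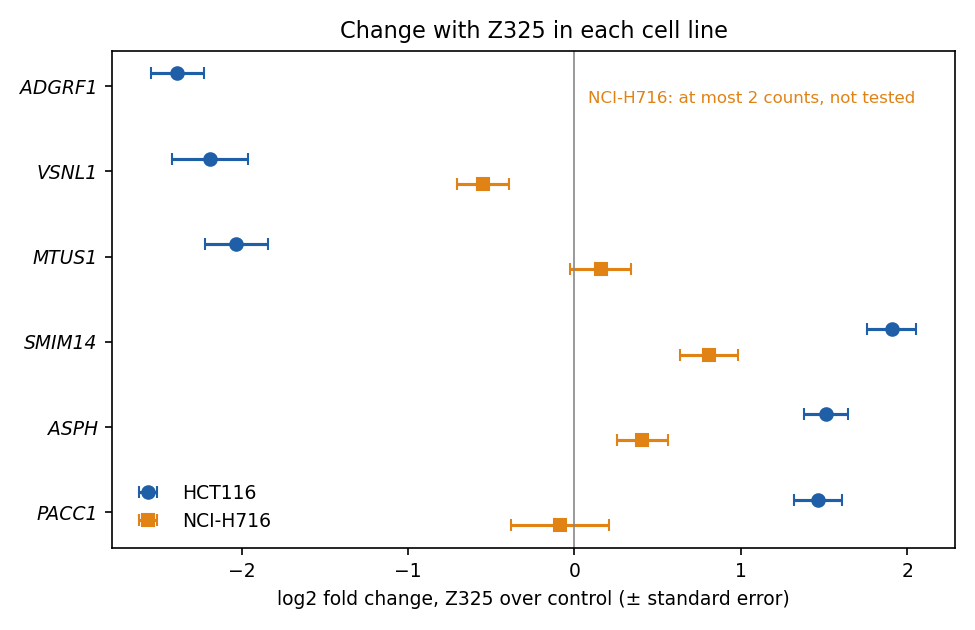
Log2 fold change of Z325 over control for each gene in HCT116 (blue circles) and NCI-H716 (orange squares), with standard errors as bars and 2 libraries per group. HCT116 values run from -2.39 to 1.91, and NCI-H716 values from -0.55 to 0.81 for the 5 genes tested there, with ADGRF1 not tested for lack of counts.

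The untreated lines already differed in these genes. With CPM taken over the 28015 genes present in both tables, PACC1 was 6.25-fold higher in control HCT116 than in control NCI-H716 (96.5 to 99.9 against 15.3 to 16.1 CPM). SMIM14 was 5.01-fold higher in NCI-H716 (349 to 377 against 68.1 to 76.8 CPM) and VSNL1 3.15-fold higher there (601 to 651 against 183 to 215 CPM). MTUS1 and ASPH were closer, at 1.48-fold and 1.28-fold higher in HCT116. ADGRF1 had 349 to 358 CPM in control HCT116 and no count in control NCI-H716. Control ranges of the lines did not overlap for any of the 6 genes, but the lines were counted by different programs, so line and processing cannot be told apart here and no test is given.

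Per length of transcript, the order of the genes changed with treatment in HCT116. In control HCT116, fragments per kilobase of transcript, scaled to depth (FPKM) were highest for VSNL1 (48.2 and 56.8), then ASPH (38.1 and 42.2), PACC1 (33.1 and 34.2), ADGRF1 (28.2 and 28.9), MTUS1 (15.3 and 11.6) and SMIM14 (11.8 and 10.4). Neighbours in this order were apart except MTUS1 and SMIM14, whose values overlapped. After Z325, ASPH (108 and 115 FPKM) and PACC1 (92.3 and 87.8) led, followed by SMIM14 (41.6 and 39.2), VSNL1 (12.9 and 8.99), ADGRF1 (4.65 and 6.09) and MTUS1 (3.04 and 3.34). These HCT116 values use the whole exon length of each gene and the total of the listed genes, and are not on the scale of the deposited NCI-H716 values. In control NCI-H716 the deposited FPKM were 204 and 170 for VSNL1, 171 and 164 for SMIM14, 104 and 101 for ASPH, 11.2 and 14.3 for MTUS1 and 2.90 and 3.19 for PACC1. VSNL1 and SMIM14 overlapped in that order, and the others did not.

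A further readout in NCI-H716, which the choice of genes did not use, was the mean transcript length that RSEM assigned to each gene. RSEM weighs each annotated transcript by its estimated abundance, so a longer value means that reads were given to longer transcripts. For SMIM14 this length was 1167 and 1187 bases in control and 1287 and 1725 bases after Z325, a ratio of 1.28 between group means. For VSNL1 it was 1586 and 1806 bases in control and 1870 and 2086 bases after Z325, a ratio of 1.17. Both genes were thus longer in both treated libraries than in both controls, as were 15.6% of the 14142 genes tested, while 14.5% were shorter. Of the tested genes, 94.9% (SMIM14) and 90.3% (VSNL1) had a smaller length change. The median length over all tested genes was 1944 and 1972 bases in control and 1998 and 2003 bases after Z325. Their median log2 length change was 0. Lengths of MTUS1, PACC1 and ASPH overlapped or touched between groups. The longer estimate lowers FPKM, and for SMIM14 the deposited FPKM of 171 and 164 in control and 300.1 and 168 in treated cells overlapped although the counts did not. On the FPKM scale the log2 fold change was 0.42 for SMIM14 and -0.78 for VSNL1 (limma, log2(FPKM + 0.1)), against 0.81 and -0.55 from counts. HCT116 was counted over whole genes, so no length of this kind was computed there.

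**Figure D3:**
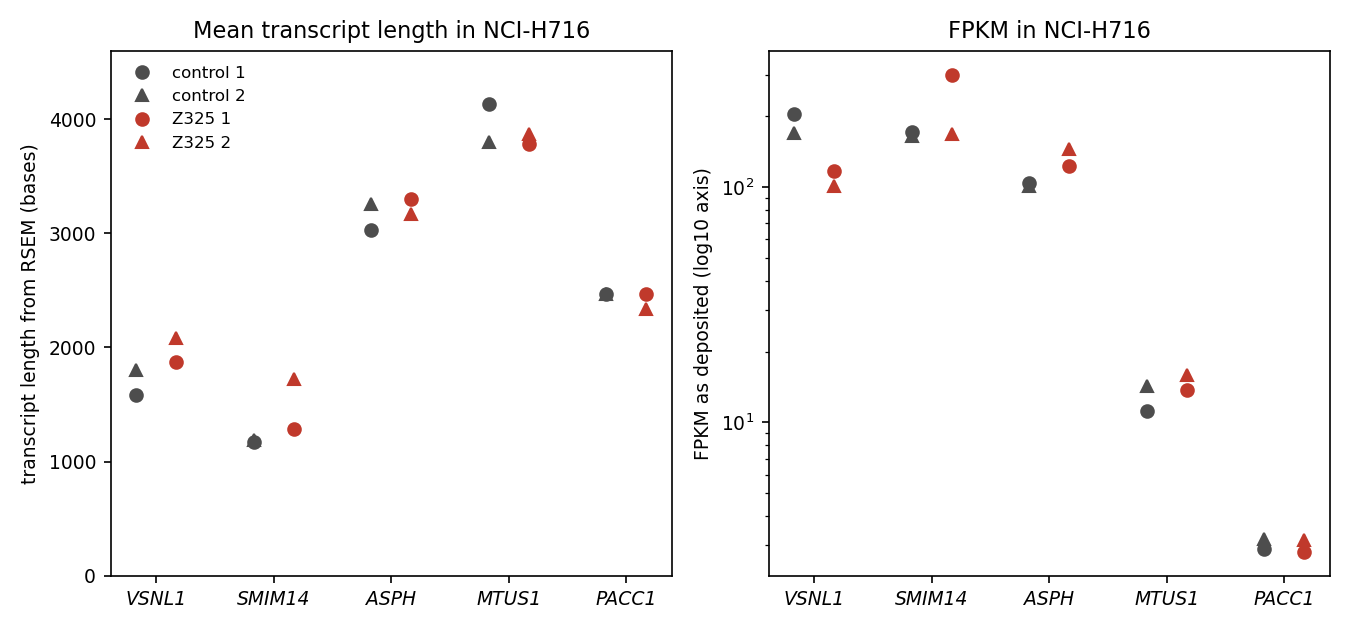
Mean transcript length from RSEM in bases (left) and deposited FPKM on a log10 axis (right) for the 5 genes tested in NCI-H716, in each control (grey) and Z325 (red) library, with circles for replicate 1 and triangles for replicate 2. SMIM14 in Z325 replicate 2 stands out with 1725 bases, and its FPKM of 168 there falls between the controls.

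The nearest tested genes on either side of each member were followed in the same way. UGDH, which encodes UDP-glucose dehydrogenase and lies 18025 bases from SMIM14, rose in both lines. In HCT116 it had 235 and 279 CPM in control and 463 and 483 CPM after Z325 (log2 fold change 0.88, SE 0.14, edgeR adjusted p = 0.0134, and again 0.88 without Z325 replicate 2). NCI-H716 had 192 and 189 CPM in control and 512 and 448 CPM after Z325 (1.33, SE 0.16, edgeR adjusted p = 0.00515). UGDH thus had the larger fitted change in NCI-H716 and SMIM14 in HCT116, a difference that was not tested. The call was lost in both lines by limma on FPKM, in HCT116 without control replicate 1 or 2 and in NCI-H716 without control replicate 1, and the adjusted p over all alternatives was 2.56e-06 to 0.132 in HCT116 and 3.02e-22 to 0.0760 in NCI-H716. SMIM14-DT, a noncoding gene that starts 205 bases from SMIM14 in the opposite direction, had 24 and 20 counts in control HCT116 and 121 and 14 counts after Z325, or 1.74 and 1.53 against 9.46 and 4.01 CPM (log2 fold change 2.09, SE 0.56, edgeR adjusted p = 0.0669). This value rested on Z325 replicate 1, with 2.55 (edgeR adjusted p = 2.11e-05) when replicate 2 was left out and 1.27 (0.327) when replicate 1 was left out, and a range of 2.11e-05 to 0.415 over all alternatives. NCI-H716 libraries held 0, 3, 3 and 8 of its counts. None of the other 10 neighbours passed the test in a line where they were tested. Of these, SMC6 lies 6794 bases from VSNL1 (0.11 in HCT116, SE 0.15, and 0.43 in NCI-H716, SE 0.20) and PPP2R5A 2075 bases from PACC1 (-0.39, SE 0.25, and 0.18, SE 0.19).

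Genes with the likest pattern were sought among 5009 genes that passed the filter in both lines, by the Euclidean distance over the 8 libraries of log2(CPM + 1) after subtraction of each line's control mean. As the distance uses the HCT116 values, the fold changes of these genes are descriptions. PACC1 had the closest partner, SERPINI1 (neuroserpin, distance 0.228), which changed by 1.58 in HCT116 and -0.04 in NCI-H716 on the log2 scale. For ASPH these were APLF, a DNA end-joining factor (0.319), and ICA1, a protein of secretory membranes (0.336), with ICA1 at 1.48 and 0.42. APLF had 1.70 (SE 0.37) and 0.37 (SE 0.53), at a mean of only 7.80 and 2.01 CPM. SMIM14 was nearest to ARRDC3, an alpha-arrestin (0.408), which had 2.03 in HCT116 and 1.05 in NCI-H716, and next to GCLC, the catalytic subunit of glutamate-cysteine ligase (0.643), with 1.73 and 0.88. VSNL1 was nearest to the lysolipid transporter MFSD2A (0.481), with -3.03 (SE 0.65) and -0.54 (SE 0.64) at a mean of only 4.34 and 1.23 CPM. At so few CPM the added 1 shrinks changes on the distance scale. Next to VSNL1 was the chromosomal passenger subunit CDCA8 (0.654), with -1.84 and -0.66. The transcription factor ZBTB20 (0.559; -1.73 and 0.29) and ARHGAP26 (0.563; -1.96 and -0.12) were nearest to MTUS1. For ADGRF1 the distance to its likest gene, the adaptor MYD88, was larger than that of the other 5 members to theirs (0.741; -2.16 and 0.28).

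**Figure D4:**
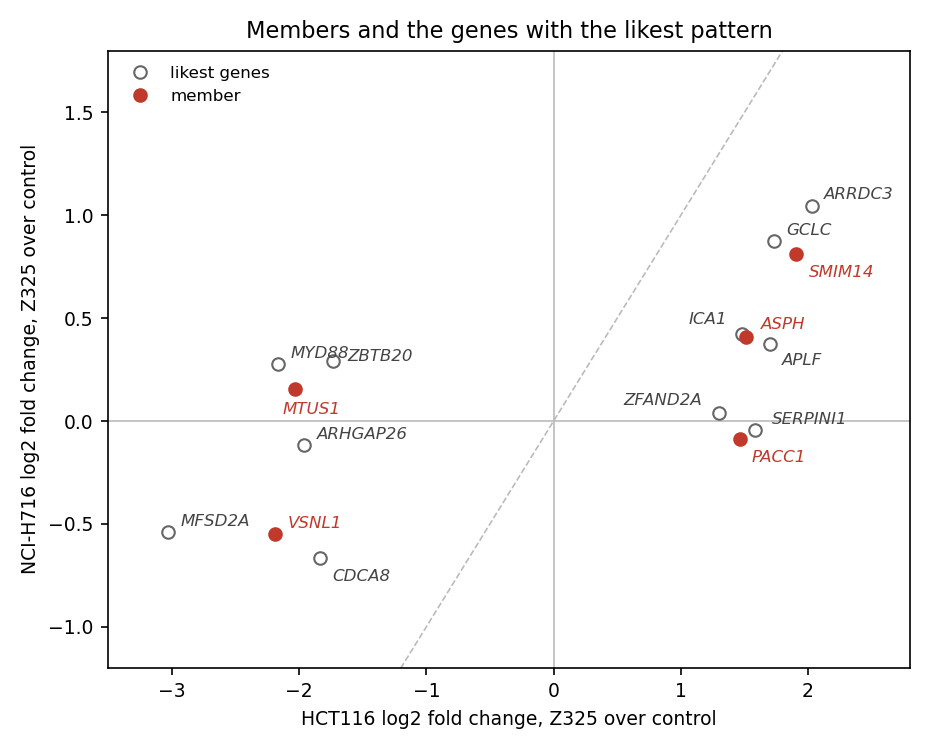
Log2 fold change of Z325 over control in HCT116 (horizontal) against NCI-H716 (vertical) for the 5 members tested in both lines (red) and the likest genes of all 6 members (open circles; 2 each, and 1 for ADGRF1), with a dashed line of equal change. SMIM14, ARRDC3 and GCLC lie at upper right, ASPH, APLF and ICA1 below them, PACC1 and its pair near 0 on the vertical axis, and VSNL1, MFSD2A and CDCA8 at lower left.

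Relatives of the members were read as lists, in which at most 2 genes passed the adjusted edgeR threshold in either line. The shares over all genes tested were 5.78% in HCT116 and 0.502% in NCI-H716 at that threshold, and 23.9% and 16.9% at unadjusted p under 0.05. The medians over all genes were -0.03 and -0.01. The genes listed for HCT116 held only part of each list, so a gene untested there need not be scarce. They held 17 of 31 adhesion receptors, 10 of 13 calcium sensors and 17 of 36 chloride channels. For hydroxylases, calcium store release and plus-end proteins the listed shares were 9 of 24, 10 of 24 and 15 of 34. Of 31 adhesion receptors, the family of ADGRF1, 5 were tested in HCT116 and 14 in NCI-H716, with 0 called by edgeR in either line (1 and 4 at unadjusted p under 0.05, 0 by DESeq2 or limma) and medians of 0.15 and 0.05. The most abundant of them in HCT116 was ADGRG6, with 0.40 (SE 0.22) in HCT116 and 0.34 (SE 0.22) in NCI-H716. Among 13 neuronal calcium sensors, the family of VSNL1, 4 were tested in each line and edgeR called 0 (1 and 0 at unadjusted p under 0.05, 0 by limma, and 1 by DESeq2, HPCAL1 in HCT116), with medians of -1.57 and -0.40. The HCT116 median rests on 4 genes, of which HPCAL4, NCALD and GUCA1B were at most 4.01 CPM in any HCT116 library and GUCA1B had the opposite sign (0.94, SE 0.67). HPCAL1, a close relative of VSNL1, had 49.0 and 83.1 CPM in control HCT116 and 29.6 and 35.2 CPM after Z325 (-1.03, SE 0.28, edgeR adjusted p = 0.0703). Its adjusted p fell under 0.05 without Z325 replicate 1 (0.0172) or 2 (0.00122, log2 fold change -1.13), and ranged from 0.00122 to 0.501 over all alternatives.

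Chloride channels, the group of PACC1, had 9 of 36 genes tested in HCT116 and 21 in NCI-H716, with 1 called higher by edgeR in each line (2 and 6 at unadjusted p under 0.05, 1 and 3 by DESeq2, 1 and 0 by limma on log2(FPKM + 1)) and medians of -0.20 and 0.27. CLIC4, an intracellular chloride channel protein, rose in HCT116 from 253 and 271 CPM to 577 and 573 CPM (1.14, SE 0.12, edgeR adjusted p = 0.00354, and 1.17 without Z325 replicate 2). Without HCT116 control replicate 1 or 2 that call was lost, and its adjusted p over all alternatives was 1.11e-11 to 0.0607. In NCI-H716 it had 0.78 (SE 0.17, edgeR adjusted p = 0.0898), with 0.00596 by DESeq2, 0.0229 and 0.0106 without Z325 replicate 1 and 2, and 7.82e-08 to 0.634 over all alternatives. BEST1, a calcium-activated chloride channel, was the gene of this list that edgeR called in NCI-H716, and rose from 1.67 and 0.873 CPM to 8.40 and 18.6 CPM (3.38, SE 0.47, edgeR adjusted p = 0.0130; 5.02e-18 to 0.194 over all alternatives), and was not tested in HCT116.

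Enzymes of the class of ASPH, the 2-oxoglutarate-dependent hydroxylases, had 9 of 24 genes tested in HCT116 and 21 in NCI-H716, and edgeR called 0 in either line (1 and 1 at unadjusted p under 0.05, 0 by DESeq2 or limma; medians -0.19 and 0.02). The collagen lysyl hydroxylase PLOD2 had -0.19 (SE 0.22) in HCT116 and 0.03 (SE 0.20) in NCI-H716. Genes of calcium store release, to which junctin and junctate are tied, had 6 and 13 of 24 genes tested with 0 called by edgeR or limma (2 and 3 at unadjusted p under 0.05, 0 and 2 by DESeq2; medians -0.30 and 0.07). The store calcium sensor STIM2 had -0.40 (SE 0.25) and 0.10 (SE 0.19). Microtubule plus-end proteins, read beside MTUS1, had 14 and 26 of 34 genes tested, with medians of -0.54 and 0.04. In HCT116 1 rose, the linker protein CLIP4 (0.85, SE 0.20), and 1 fell, the kinesin KIF2C (-0.84, SE 0.19), both at an edgeR adjusted p of 0.0438, and the fold changes were 1.10 and -0.78 without Z325 replicate 2. In that line 7 of 14 passed unadjusted p under 0.05, DESeq2 called 3 and limma 0, while edgeR called 0 in NCI-H716 (2 at unadjusted p under 0.05, 1 by DESeq2, 0 by limma). The calls of CLIP4 and KIF2C were lost without HCT116 control replicate 1 or 2, that of CLIP4 also without Z325 replicate 1, and both by limma. Over all alternatives their adjusted p reached 0.269 and 0.313.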

How the data were processed

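Libraries were made with a kit that amplifies full-length cDNA from mRNA, and groups were taken from the labels. For HCT116 the authors deposited raw counts per gene, for which the labels name Bowtie2 and featureCounts on hg38. This table held chromosomes 1 to 8 and 65 genes of chromosome 9, and 4 broken lines were left out. For NCI-H716 the authors deposited RSEM expected counts, which were rounded, and FPKM values. The study's methods name STAR and RSEM on GRCh38. Strand use is not given in the sources used here. Each line was fitted separately with edgeR 4.0.16 (TMM, its filter on low counts, quasi-likelihood test, Benjamini-Hochberg adjustment over all genes tested). SE was taken from the fold change and its F statistic. Alternatives used DESeq2 1.42.0, limma 3.58.1 on log2(FPKM + a pseudocount of 1 or 0.1), other filters, library size alone, a replicate block and leaving out each library. The fits were tried on simulated data with 4-fold changes and the same spread for every gene. Changes as small as those of the members in NCI-H716 were not simulated. The 6 genes and all lists were chosen with earlier results of these data known. Other genes named were the 2 likest per member (1 of them is not reported here), the nearest tested neighbours, and in each list the called genes or the most abundant. Tests over 2 against 2 libraries rest on a spread shared across genes.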

Additional observations from a re-analysis of the deposited data

Results flagged for a closer look

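PACC1 was picked out because its treated libraries lay on opposite sides of the controls in the 2 lines. Both Z325-treated HCT116 libraries lay above both controls (282 and 252 against 93.1 and 101 CPM), while both treated NCI-H716 libraries lay below both controls (6.26 and 6.48 against 6.59 and 6.98 CPM). Groups did not overlap for 53.8% of genes tested in HCT116 and 49.4% in NCI-H716, and the deposited FPKM of PACC1 in NCI-H716 did overlap (2.82 and 3.17 treated, 2.90 and 3.19 control). The log2 fold change in HCT116 minus that in NCI-H716 was 1.55 (SE 0.33). This difference was not tested, since PACC1 was selected on its HCT116 value, and no change was shown in NCI-H716 alone (log2 fold change -0.09, SE 0.29, edgeR adjusted p = 0.909).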

How the results depend on the processing

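The 11 fold changes of the members kept their direction under all 126 alternative values. Members called in NCI-H716 numbered 0, but 1 with DESeq2, 1 with no filter on low counts, 3 with the replicate block, and 0 to 1 when a library was left out (1, SMIM14, without Z325 replicate 1 or 2). Genes called in HCT116 numbered 375, with 615 at a minimum of 10 counts, 683 with no filter, 709 by DESeq2, and 37 and 47 by limma on log2(FPKM + 0.1) and log2(FPKM + 1). Leaving out a library gave 23 to 1076 (44 and 23 without control replicate 1 and 2, 971 and 1076 without Z325 replicate 1 and 2). In NCI-H716 71 genes were called, with 777 without the filter, 316 by DESeq2, 6 and 6 by limma and 36 among the genes of the HCT116 table. Leaving out a library gave 38 to 1386 (38 and 225 without control replicate 1 and 2, 1386 and 222 without Z325 replicate 1 and 2). The cause of these shifts was not tested.

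With the replicate number as a block, 381 genes were called in HCT116 and 2397 in NCI-H716, where SMIM14, VSNL1 and ASPH had edgeR adjusted p of 1.96e-08, 0.000281 and 0.0122. Deviations of same-numbered libraries correlated at -0.0217 and 0.286 across genes. The labels do not say whether a number marks a shared batch, and with 2 pairs this was not settled. Depth limits ADGRF1 and PACC1 in NCI-H716 and the HCT116 library of 3434620 counts.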
